A study of Homo sapiens with 6 samples.

Results

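The HSF1 and HSF6 cultures were examined on their own for the change from the embryonic stem cell (ESC) stage to the neural stem cell (NSC) stage. They account for 4 of the 6 Illumina Human-6 arrays of the series, 2 at the ESC stage and 2 at the NSC stage, and were chosen by the line and stage given in the sample labels. Both are established lines of human embryonic stem cells, cultured and differentiated at UCLA by a protocol that the sources used here do not describe, and each culture gave 500 ng of RNA for 1 array. The H1 line, with 1 array at each stage, came from feeder-free culture at Rutgers and, by the study's methods, carried chromosomal duplications. It enters here only where the HSF lines are set against it, and line and site of culture cannot be told apart. No transgene, drug or added genotype is named for any of the 6 cultures. With 1 culture per line and stage, HSF1 and HSF6 served as the replicates (n = 2 per stage). Each p-value of the HSF comparison measures the spread between these lines, which holds line and culture differences together. In stage fits of all 6 arrays H1 was a further replicate, so their p-values also hold its differences of line and site.

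During neural induction, pluripotent cells lose the POU5F1 network and the E-cadherin adhesion of an epithelial sheet, and Notch signaling through its receptors and HES-family targets keeps part of the progeny as dividing neural progenitors while others leave the cycle and build axons and synapses. Adherent neural cultures can also hold mesenchymal cells, which are recognized by fibrillar collagens, small matrix proteoglycans and the repressors of E-cadherin SNAI2, ZEB1 and ZEB2. Pluripotent cells divide rapidly and are known for high glucose uptake and for high demand on one-carbon and nucleotide synthesis.

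Sequences were taken from RefSeq (GRCh38.p14) for genes of this change and for related genes. HES5, a Notch target that represses neuronal differentiation, is shown as the 250 bases before and 50 after the annotated start. HES1, a second gene of that family, is shown in the same way for its sequence only, and its level on these arrays is not given here. In both, the hexamer TGGGAA, the core bound by the Notch effector RBPJ, is in capitals on either strand. CLDN7, which encodes a tight junction claudin and was among the epithelial genes lost at the NSC stage, is shown with the hexamer CAGGTG, an E-box of the kind bound by SNAI2 and ZEB1, in capitals on either strand. The mature miR-9-5p is shown because the host transcript of MIR9-1 was among the genes that separated the HSF lines from H1, and its capitals mark the seed, bases 2 to 8. The miRNA itself was not measured on these arrays, and MIR9-1, MIR9-2 and MIR9-3 encode the same mature sequence.
HES5, chr1:2530214-2530513, minus strand: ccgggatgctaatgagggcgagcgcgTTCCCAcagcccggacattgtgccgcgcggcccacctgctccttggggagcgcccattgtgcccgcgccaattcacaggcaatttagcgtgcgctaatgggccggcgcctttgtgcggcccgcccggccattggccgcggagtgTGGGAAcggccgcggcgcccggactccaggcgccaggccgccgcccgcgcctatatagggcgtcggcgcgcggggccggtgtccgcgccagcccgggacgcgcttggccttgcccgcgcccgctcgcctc
HES1, chr3:194135898-194136197, plus strand: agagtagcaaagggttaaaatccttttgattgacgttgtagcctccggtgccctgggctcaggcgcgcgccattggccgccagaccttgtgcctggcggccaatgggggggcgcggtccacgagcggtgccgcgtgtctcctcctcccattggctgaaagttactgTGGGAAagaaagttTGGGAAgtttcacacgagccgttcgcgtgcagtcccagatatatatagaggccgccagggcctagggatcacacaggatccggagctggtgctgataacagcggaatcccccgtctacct
CLDN7, chr17:7262429-7262728, minus strand: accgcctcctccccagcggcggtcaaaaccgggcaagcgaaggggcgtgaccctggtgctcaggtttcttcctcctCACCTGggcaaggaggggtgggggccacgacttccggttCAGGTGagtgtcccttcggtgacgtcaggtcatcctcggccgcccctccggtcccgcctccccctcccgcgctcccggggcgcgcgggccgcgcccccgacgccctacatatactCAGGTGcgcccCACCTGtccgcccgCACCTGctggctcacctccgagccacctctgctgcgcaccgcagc
hsa-miR-9-5p, MIR9-1 at chr1:156420392-156420414, minus strand: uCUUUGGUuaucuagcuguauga

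For each of the 3 genes the window with the most matches to its hexamer was printed, so the counts are the highest among that gene's windows. TGGGAA was found 2 times in the HES5 window and 2 times in the HES1 window. It was present in 24% of all 35116 promoter windows of the table and in 5 of 32 windows (15.6%) of the 18 neural stem and progenitor genes that the table holds. CAGGTG was found 5 times in this CLDN7 window. It was present in 12 of 21 windows (57.1%) of the 15 epithelial adhesion genes that the table holds and in 20.6% of all windows. These matches describe letters in a window and say nothing of binding.

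Signals are deposited as linear intensities, brought to a common distribution over the 6 arrays by the authors with no background removed. The bulk of the probes formed a peak of background signals around 127, and a signal over 145 was taken as above background. A probe was tested if both HSF arrays of at least 1 stage passed this limit, which kept 19293 of 48803 probes. The HSF arrays had between 19253 and 19272 probes above it. In the list counts, a gene with a probe but none tested is said to have stayed below the limit, although single arrays may have passed it. Differences are given as NSC minus ESC on the log2 scale of the background-corrected signal with 16 added (± SE from limma), or as "at least" a fold where both arrays of a stage stayed under the limit. In that case the bright stage is set against the limit. Calls required a 1.5-fold difference or more and a p under 0.05 after Benjamini-Hochberg adjustment. Of the tested probes, 2349 (12.2%) were called higher in NSC and 2189 (11.3%) higher in ESC. Each of these 4538 moved the same way in both lines, which a call largely requires because its spread is that between the lines. Of all 11798 tested genes, called or not, 9546 moved the same way in both. Taking for each gene its tested probe of highest signal, 1590 of 11798 genes (13.5%) were called higher in NSC and 1455 (12.3%) higher in ESC, with a median difference over all genes of -0.05. These shares are the background against which the counts of each list are read. Without the HSF1 NSC array 480 probes were called higher in NSC and 203 higher in ESC, and without the HSF6 NSC array 394 and 163.

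The stage labels were first checked against pluripotency and epithelial genes. The signal of POU5F1, the central transcription factor of pluripotency, was 10448 and 9876 on the HSF1 and HSF6 ESC arrays and 132 and 137 on the NSC arrays of the same lines (here and below HSF1 comes first). It was lower in NSC by at least 286-fold (adjusted p = 0.00127). LIN28A, an RNA-binding protein that blocks let-7 maturation, fell from 11072 and 10027 to 257 and 179.9, a difference of -6.70 ± 0.40 (adjusted p = 0.00154), and stayed above background in both NSC cultures. L1TD1, which binds RNA in pluripotent cells, went from 5848 and 3009.9 to 109 and 127, and ZSCAN10, a zinc finger factor of the same network, from 4912 and 3170.3 to 125 and 114. Both NSC arrays lay under the limit for these genes, which were at least 116-fold and 109-fold lower (adjusted p = 0.00134 and 0.00127). For the pluripotency list, of 27 listed genes, 20 were tested and 3 had no probe under the symbol. The other 4 were not above the limit on both arrays of either stage. Among the tested genes 17 were higher in ESC and none in NSC, with a median difference of -4.15. Of the 20, 8 passed the limit only through the ESC arrays, which favors a lower NSC value. The exceptions were SOX2, KLF4 and DPPA2. With the NSC array of HSF1 or that of HSF6 left out, 11 and 11 genes were called. NANOG did not enter the tests: its signal was 124 on the HSF1 ESC array, within background, and 888 on the HSF6 ESC array.

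Epithelial adhesion genes fell with the pluripotency genes. EPCAM, an epithelial cell adhesion molecule, had signals of 10204 and 6029 in ESC and 186 and 175 in NSC, a difference of -6.80 ± 0.33 (adjusted p = 0.00127). CDH1, which encodes E-cadherin, dropped from 4355 and 2731 to 152 and 148, and the log2 difference was -6.42 ± 0.31 (adjusted p = 0.00127). CLDN7, whose promoter window is printed above, went from 1108 and 817 to 139.9 and 139 and was lower in NSC by at least 23.9-fold (adjusted p = 0.00149). KRT19, a keratin of simple epithelia, was 704 and 1346 in ESC and 162 and 128 in NSC with a difference of -4.58 ± 0.50 (adjusted p = 0.00576). In each of these genes the lower ESC array stayed above the higher NSC array. Named genes were mostly picked for a called change, so such separation of the stages, here and below, follows largely from the choice. For the whole list, of 30 listed genes, 24 were tested, 3 stayed below the limit and 3 had no probe under the symbol, of which 22 were higher in ESC and none in NSC, with a median of -2.77. Of these 24 tested genes, 10 passed the limit only through the ESC arrays, which favors a lower NSC value. The count was 13 without the HSF1 NSC array and 9 without that of HSF6.

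Genes of neural stem and progenitor cells were higher in the NSC cultures. HES5 was within background in ESC, at 120.2 and 132, and reached 4115 and 1339 in the HSF1 and HSF6 NSC cultures, so that it was higher in NSC by at least 63.1-fold (adjusted p = 0.00337). Its NSC level in HSF1 was above that in HSF6. POU3F2, a POU factor of neural progenitors and neurons, went from 124 and 150.5 to 1948 and 3621, a log2 difference of 6.37 ± 0.43 (adjusted p = 0.0018). PAX6, which specifies neuroectoderm and radial glia, was at 113 and 119 in ESC and 591 and 413 in NSC and was higher in NSC by at least 10.8-fold (adjusted p = 0.00218). FABP7, the brain lipid-binding protein of radial glia, rose from 149.8 and 165 to 1387 and 1186, and the glutamate transporter of radial glia SLC1A3 from 262 and 231 to 3055 and 3299. Their differences were 4.67 ± 0.28 (adjusted p = 0.00154) and 4.51 ± 0.25 (adjusted p = 0.00141). The ESC and NSC arrays did not overlap for any of these called genes, which their calls made likely. Of the 5 genes HES5 had the NSC arrays farthest apart.

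Over the neural stem and progenitor list, of 26 listed genes, 23 were tested, 2 stayed below the limit and 1 had no probe under the symbol. Of the tested genes 18 were higher in NSC and none in ESC, with a median difference of 2.71 against -0.05 over all genes, and 5 of the 23 passed the limit only through the NSC arrays. The exceptions include the intermediate filament gene NES, a standard marker of neural stem cells, at 911 and 1522 in ESC and 2564 and 2360.2 in NSC (1.15 ± 0.34, adjusted p = 0.0618), which passed with the line as a block. SOX2, which maintains both pluripotent and neural stem cells, was high at both stages, with 4021 and 5403 in ESC and 6223 and 6337 in NSC (0.44 ± 0.26, adjusted p = 0.256). SOX1, an early marker of neuroectoderm, stayed under the limit on all 4 HSF arrays. The count of the list was 8 without the HSF1 NSC array and 11 without that of HSF6.

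Genes of differentiating neurons rose beside them. MAP6, which stabilizes microtubules, was at 147 and 142 in ESC and 2183 and 1958 in NSC, a difference of 5.81 ± 0.24 (adjusted p = 0.00127). STMN2, a stathmin of growth cones, rose from 299.7 and 338 to 8177 and 6959 and its relative STMN4 from 122 and 120.2 to 905 and 913. STMN2 differed by 5.17 ± 0.25 (adjusted p = 0.00127), and STMN4 was higher in NSC by at least 22.7-fold (adjusted p = 0.00127). ELAVL3, a neuronal RNA-binding protein, had 193 and 140.0 in ESC and 2078 and 2144 in NSC (5.31 ± 0.47, adjusted p = 0.00351). MAP2, a protein of dendritic microtubules, went from 119.9 and 126 to 667 and 491 and was higher in NSC by at least 13.1-fold (adjusted p = 0.00179), while 1 of its further probes differed by 0.29 with no call. TUBB3, the neuronal beta tubulin detected by the TUJ1 antibody, was already high in ESC, at 1888 and 2269.7, and reached 3922 and 4798 in NSC, a difference of 1.11 ± 0.26 (adjusted p = 0.0347). The 2 NSC values lay above both ESC values in each of these genes. Of the cytoskeleton and growth cone list, 22 of 24 genes were tested, 7 of them through the NSC arrays only, and 18 were higher in NSC and none in ESC (median 3.01). The count was 15 without the HSF1 NSC array and 10 without that of HSF6.

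Synaptic and axon guidance genes followed in part. SNAP25, a SNARE protein of synaptic vesicle fusion, was at 149.7 and 162 in ESC and 1456 and 2420.3 in NSC, a difference of 5.31 ± 0.35 (adjusted p = 0.00177), and a further probe differed by 0.59 with no call. SCG2, a secretogranin of dense-core vesicles, rose from 157 and 173 to 1389.6 and 3170.3 (5.21 ± 0.46, adjusted p = 0.00343). SLC17A6, the vesicular glutamate transporter, was at 120.0 and 131 in ESC and 673 and 518 in NSC and was higher in NSC by at least 13.6-fold (adjusted p = 0.00175). In all 3 genes the stages were apart in both lines. For synaptic vesicle and transmitter genes, of 30 listed genes, 22 were tested, 6 stayed below the limit and 2 had no probe under the symbol, with 12 higher in NSC, 1 higher in ESC and a median of 1.38, and 7 of the 22 passed the limit only through the NSC arrays. This list was called in 5 genes when either NSC array was left out. TH, the rate-limiting enzyme of dopamine synthesis, barely left background, at 125 and 128 in ESC and 154 and 183 in NSC (higher in NSC by at least 1.59-fold, adjusted p = 0.0494), and CHAT, which makes acetylcholine, had 213 and 233 and 204 and 186 with no call (adjusted p = 0.266). Among axon guidance genes 24 of 26 were tested, with 14 higher in NSC and none in ESC (median 1.56). Of the 24, 9 passed only through the NSC arrays, which favors a higher NSC value. EPHA3, an ephrin receptor, went from 119.5 and 112 to 1123 and 2314 and was higher in NSC by at least 42.5-fold (adjusted p = 0.0018), although its further probes were not called. EFNB3, an ephrin ligand, rose from 338 and 356 to 2829.9 and 2424 (3.41 ± 0.24, adjusted p = 0.00189).

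Regional identity was read from transcription factor lists. On the H1 NSC array, where neural stem cell markers were low and fibroblast markers high (sums below), NR2F1 was at 1874 and DLX1 at 1112. ZIC4 and IRX5 were at 240 and 155 there. Which cells carried these factors was not tested. NR2F1, a nuclear receptor of the developing forebrain and hindbrain, was at 124 and 133 in ESC and 2574 and 2521 in NSC and was higher in NSC by at least 69.3-fold (adjusted p = 0.00127), with nearly equal NSC levels in the lines. Of the forebrain and eye field list, 15 of 22 genes stayed below the limit, 2 had no probe under the symbol and 5 were tested. Through the NSC arrays only, 2 of these 5 passed the limit. NR2F1, DLX1 and DLX5 were higher in NSC. OTX2, a factor of forebrain and midbrain that pluripotent cells also express, moved in opposite directions: its signal went from 765 to 6236 in HSF1 and from 2632 to 165 in HSF6, with log2 differences of 3.23 and -5.55 and no call. Among midbrain, hindbrain and cord factors 11 of 23 were tested, with a median of 0.58. Of these, ZIC4, IRX5, IRX3 and ZIC1 were higher in NSC, IRX2 was higher in ESC and 6 were not called, and 4 passed the limit only through the NSC arrays. ZIC4, a zinc finger factor of the dorsal midbrain and hindbrain, rose from 131 and 129.6 to 1024 and 1631 and was higher in NSC by at least 33.5-fold (adjusted p = 0.00149). IRX5, an Iroquois factor of the neural tube, went from 149 and 174 to 957 and 892 (4.05 ± 0.31, adjusted p = 0.00247).

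HOX genes, which mark hindbrain and more caudal levels, were also present at the NSC stage. HOXA2 was at 112 and 118 in ESC and 756 and 984 in NSC and was higher in NSC by at least 21.3-fold (adjusted p = 0.00134). HOXB2 rose from 128 and 198 to 918 and 2413 (4.87 ± 0.74, adjusted p = 0.0126) and HOXC6 from 251 and 165 to 1074 and 1756 (3.86 ± 0.53, adjusted p = 0.00998), while a further HOXC6 probe was not called. The NSC values of HOXB2, HOXB5 and HOXC6 were higher in HSF6 than in HSF1. On the H1 NSC array HOXC6 was at 6698, and HOXA2, HOXB2 and HOXB5 were at 309, 389 and 207. Which cells carried HOX transcripts was not tested. For HOX genes, of 29 listed genes, 11 were tested, 11 stayed below the limit and 7 had no probe under the symbol, and 6 were higher in NSC and none in ESC. Of the 11 tested genes 7 passed the limit only through the NSC arrays, which favors a higher NSC value. The median difference of the tested genes was 1.58 in HSF1 and 3.11 in HSF6, where that over all genes was -0.01 and -0.08, and the difference between the lines was not tested, as each has 1 array a stage. The HOX count was 5 without the HSF1 NSC array and 1 without that of HSF6.

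Genes of glial lineages were mixed. SPARCL1, a matricellular protein of astrocytes, rose from 229 and 162 to 7911 and 3768 (6.10 ± 0.54, adjusted p = 0.00345), and NFIA, which initiates gliogenesis, from 129 and 151 to 1689 and 1463 (5.52 ± 0.30, adjusted p = 0.00141). Both had NSC values far from the ESC values. On the H1 NSC array SPARCL1 and NFIA were at 4149 and 1145, and which cells carried them was not tested. Of 18 glial genes 9 were tested, with 5 higher in NSC and 2 in ESC, and 2 were higher in NSC with either NSC array left out. Through the NSC arrays only, 3 of the 9 passed the limit. Defining genes of astrocytes and oligodendrocytes, among them GFAP, AQP4, S100B, OLIG1, OLIG2 and SOX10, were not above the limit on both arrays of either stage. GFAP was at 130 and 137 in ESC and 123 and 227 in NSC, above the limit on the HSF6 NSC array only.

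**Figure D1:**
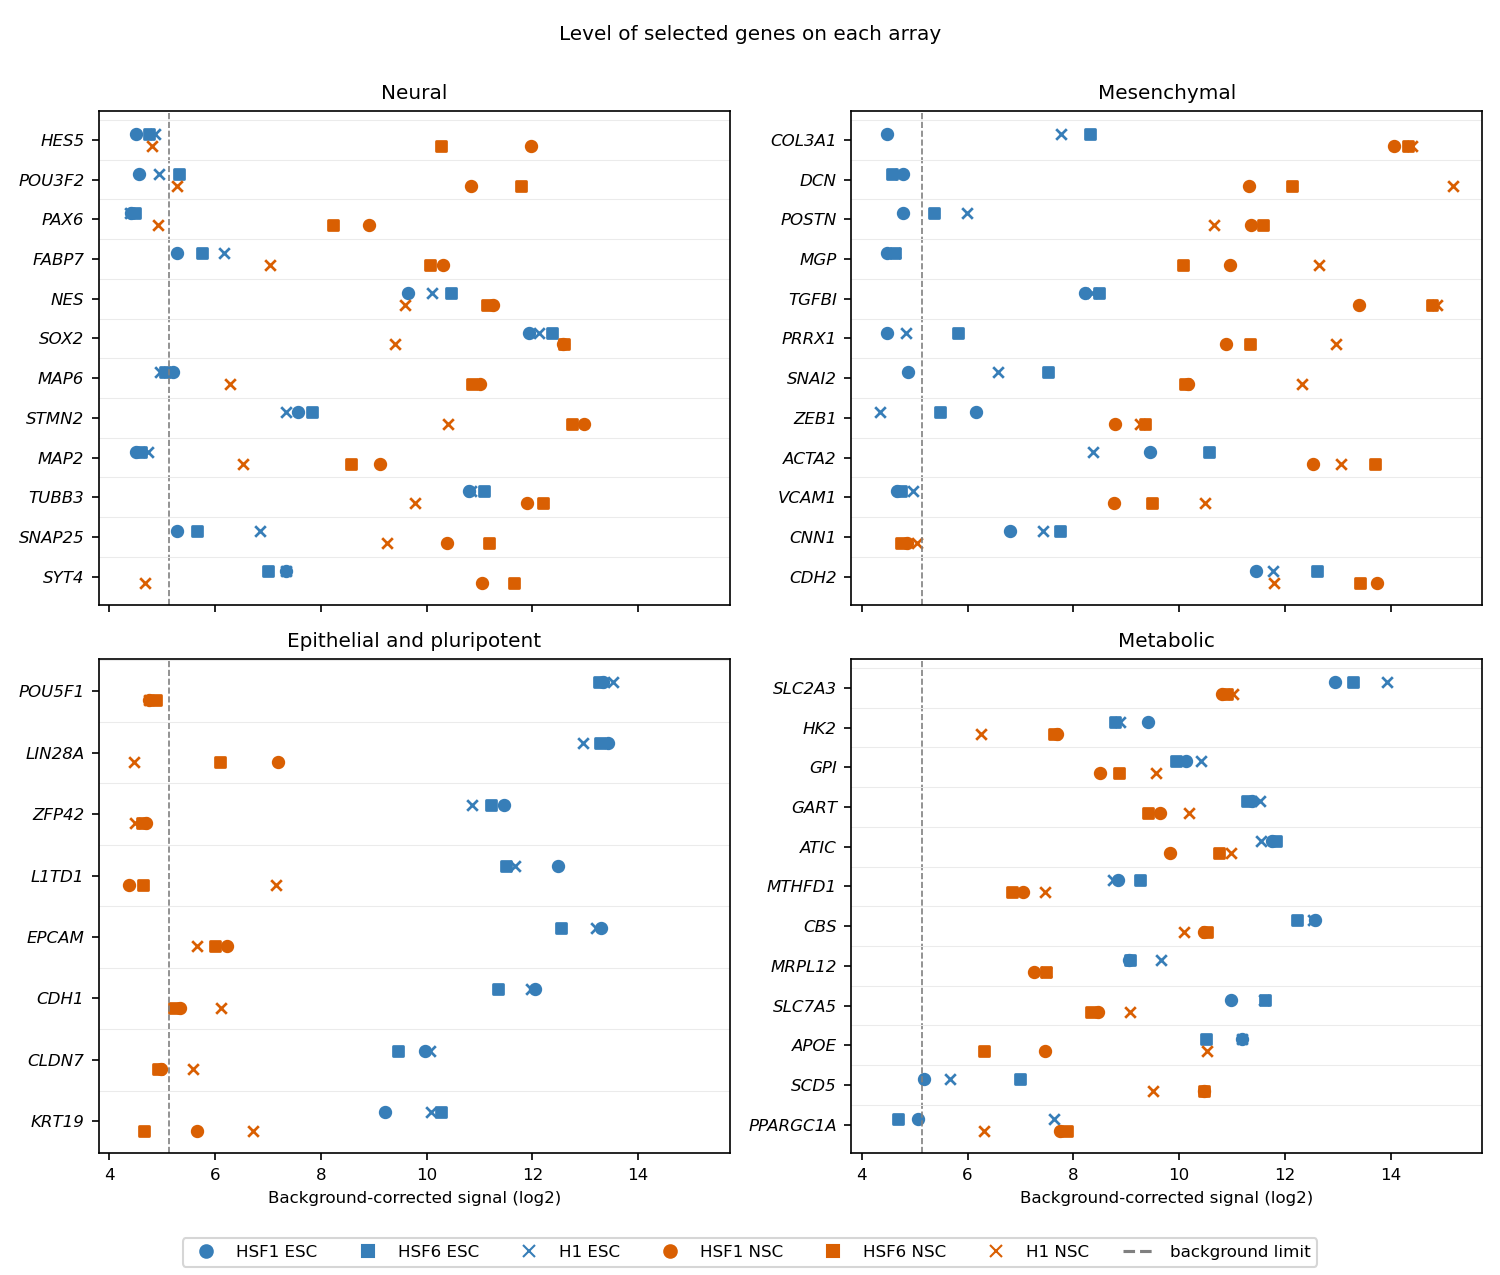
Background-corrected log2 signal (horizontal axis) of selected genes (rows) on the 6 arrays, with ESC in blue, NSC in orange, circles for HSF1, squares for HSF6 and crosses for H1; each point is 1 array and the dashed line is the background limit at 5.13. The 2 HSF points of each stage lie together for PAX6, DCN and POU5F1, while the H1 NSC crosses lie left of the HSF NSC points for the neural genes shown and right of them for DCN, MGP, PRRX1, SNAI2 and VCAM1.

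The HSF NSC cultures also carried a mesenchymal program. PRRX1, a mesenchymal homeobox factor, had signals of 118 and 168 in ESC and 2016 and 2687 in NSC, a difference of 5.97 ± 0.48 (adjusted p = 0.00284). SNAI2, a repressor of E-cadherin active in neural crest and mesenchyme, rose from 137 and 296 to 1259 and 1223 (3.94 ± 0.83, adjusted p = 0.0275), and ZEB1, a repressor of the same target, from 183 and 156 to 553 and 763 (3.25 ± 0.35, adjusted p = 0.00562). CDH11, a cadherin of mesenchymal cells, went from 274 and 505 to 4319 and 3824 (3.96 ± 0.45, adjusted p = 0.00639). For all 4 genes both NSC values exceeded both ESC values, and the ESC values of SNAI2 were 137 and 296, the lower of which was within background. CDH2, N-cadherin of neural and mesenchymal cells, had 2904 and 6382 in ESC and 13832 and 11025 in NSC and missed the call (1.55 ± 0.43, adjusted p = 0.0535), which it passed with the line as a block. Of 20 mesenchymal transition genes 17 were tested, with 9 higher in NSC, none higher in ESC and a median of 1.16, and 4 passed only through the NSC arrays. Their count was 3 without the HSF1 NSC array and 1 without that of HSF6. SNAI1 stayed below the limit and TWIST1 was not called.

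Several matrix genes had large differences. COL3A1, a fibrillar collagen, had the largest fitted difference of the genes called higher in NSC, with signals of 118 and 431 in ESC and 17309 and 20574 in NSC. The HSF1 ESC value lay within background and that of HSF6 did not, and the difference was 7.80 ± 1.18 (adjusted p = 0.0124). DCN, the small proteoglycan decorin, was within background in ESC (134 and 124) and at 2658 and 4605 in NSC, and was higher in NSC by at least 96.3-fold (adjusted p = 0.00127), while a further DCN probe differed by 0.25 with no call. POSTN, the matricellular protein periostin, rose from 133 and 152 to 2723 and 3195 (6.40 ± 0.30, adjusted p = 0.00127). MGP, an inhibitor of calcification, went from 118 and 127 to 2118 and 1196 and was higher in NSC by at least 42-fold (adjusted p = 0.00154). TGFBI, a matrix protein induced by TGF-beta, was at 408 and 468 in ESC and 10878 and 28089.6 in NSC (5.74 ± 0.48, adjusted p = 0.00305). COL6A3, of the microfibrillar collagen VI, went from 246 and 330.3 to 7398 and 11475 (5.73 ± 0.36, adjusted p = 0.00172). Stages were far apart in both lines for each of these genes.

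Of 19 fibrillar and microfibril collagens 18 were tested, with 6 higher in NSC, 1 higher in ESC (COL18A1, which lies in basement membranes) and a median of 2.13. Through the NSC arrays only, 4 of the 18 passed the limit. Collagen I was not called. COL1A1 was at 438 and 1434 in ESC and 2925 and 7920.0 in NSC (2.83 ± 0.79, adjusted p = 0.0534), and COL1A2 at 729.6 and 3292 and 4632 and 15333 (2.56 ± 0.91, adjusted p = 0.0961), where HSF6 was the higher line at both stages. With the line as a block, 13 of the 18 collagens were higher in NSC. Of 33 matrix glycoproteins and proteoglycans 30 were tested, with 12 higher in NSC and 1 in ESC (median 1.27), and 8 passed only through the NSC arrays. Of 15 basement membrane genes 13 were tested and 4 were higher in NSC, with 1 passing only through the NSC arrays. LAMA4, a laminin chain of vessels and mesenchyme, was at 138 and 126 in ESC and 635 and 497 in NSC (higher in NSC by at least 12.8-fold, adjusted p = 0.00181). Leaving out the HSF1 NSC array left 3 collagens, 7 glycoproteins and 2 basement membrane genes higher in NSC, and leaving out that of HSF6 left 1, 6 and 3. A2M, a broad protease inhibitor, went from 117 and 121 to 5148 and 3607 and was higher in NSC by at least 119-fold (adjusted p = 0.00127). The list of matrix proteases and inhibitors was otherwise mixed, with 3 genes higher in NSC and 2 in ESC of 18 tested and 23 listed. Of the 18, 4 passed the limit only through the NSC arrays and 2 only through the ESC arrays.

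Surface genes of fibroblasts and pericytes were partly higher in NSC. VCAM1, an adhesion molecule, rose from 129 and 132 to 548 and 831 and was higher in NSC by at least 16-fold (adjusted p = 0.00193), and FAP, a protease of activated fibroblasts, rose from 153 and 148 to 412 and 578 (3.24 ± 0.30, adjusted p = 0.00389). Of 18 listed genes 15 were tested, with 5 higher in NSC (2 with either NSC array left out) and 1 in ESC, CXCL12. Of the 15, 6 passed the limit only through the NSC arrays, VCAM1 among them, which favors a higher NSC value. THY1, a usual fibroblast marker, had signals of 1421 and 717 in ESC and 352 and 587 in NSC with no call. ACTA2, smooth muscle actin, was at 811 and 1632 in ESC and 5992 and 13488 in NSC (3.10 ± 0.54, adjusted p = 0.0173). It was the only 1 of 12 tested smooth muscle genes (18 listed) called higher in NSC, and CNN1, a calponin of contractile smooth muscle, fell from 223 and 328 to 136 and 132 and was lower in NSC by at least 4.43-fold (adjusted p = 0.0117). MYH11, DES and MYOCD stayed below the limit, and the median of the list was -0.52. Of 21 neural crest genes 15 were tested, 6 of them through the NSC arrays only and 1 through the ESC arrays only. SOX9, which acts in neural crest, cartilage and neural stem cells, rose from 232 and 192 to 2330.2 and 1608 (4.20 ± 0.33, adjusted p = 0.00267), and 3 other genes of the list had higher NSC values by the test, while MITF and ERBB3 were higher in ESC. With either NSC array left out, 1 crest gene was higher in NSC. The crest markers SOX10, FOXD3 and NGFR were not above the limit on both arrays of either stage.

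Marker sums show both programs on each NSC array. The background-corrected signals of the 5 fibroblast markers COL1A1, COL3A1, LUM, DCN and THY1 summed to 1655 and 2362 in ESC and to 25007 and 35894 in NSC, and all 5 were above the limit on both NSC arrays. The 4 neuron markers TUBB3, DCX, STMN2 and MAP2 summed to 2066 and 2468 in ESC and 14051 and 15977 in NSC, and the 7 neural stem cell markers to 4763 and 6866 in ESC and 14752 and 11337 in NSC. Signals of different probes are not on a common scale, so the sums compare arrays and not cell types. The part of the fibroblast markers in the neural and metabolic differences was not tested. In these bulk samples, fewer cells of a type and less RNA per cell cannot be told apart.

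Metabolic genes moved less than neural and matrix genes, and mostly downward. Over the metabolic lists, 356 of 416 distinct genes were tested, with 22 higher in NSC, 71 higher in ESC and a median difference of -0.41. In the neural lists the NSC stage was higher in 82 of 131 tested genes and the ESC stage in 4 (205 listed, median 2.13), and in the mesenchymal lists 43 and 8 of 136 (165 listed, median 0.89). With either NSC array left out, the glycolysis, mitochondrial ribosome, one-carbon and nucleotide lists had no call, where they had 5, 18, 9 and 11 genes higher in ESC with both. 

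Of the glycolysis genes, 23 were tested, 1 stayed below the limit and 2 had no probe under the symbol, with 5 higher in ESC and none in NSC (median -0.63). SLC2A3, a high-affinity glucose transporter, was at 8026 and 10111 in ESC and 1897 and 2023 in NSC, a difference of -2.27 ± 0.25 (adjusted p = 0.00596). HK2, the hexokinase of proliferating cells, went from 795 and 553 to 319 and 309 (-1.44 ± 0.30, adjusted p = 0.0259), and GPI, which converts glucose 6-phosphate to fructose 6-phosphate, from 1238 and 1095 to 473 and 574 (-1.36 ± 0.26, adjusted p = 0.0212). Each of these had both NSC values below both ESC values. PGK1 and PFKP were the other called genes, and PFKP lost its call when values under the limit were raised to it. GAPDH, PKM and LDHA were not called (adjusted p = 0.311, 0.331 and 0.312). TALDO1, of the pentose phosphate pathway, fell from 7329 and 5292 to 3328 and 2768 (-1.06 ± 0.28, adjusted p = 0.0475), and was the only 1 of 7 tested genes of its list to be called.

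Few respiratory genes were called, and more of the ribosome that translates the mitochondrial genome. In the citric acid cycle list 2 of 24 tested genes (27 listed) were higher in ESC, SDHD and SUCLG2, and in the complex I list 1 of 30 (38 listed), NDUFB7. Among subunits of complexes III, IV and V 4 of 33 (37 listed) were higher in ESC and UQCR10 was higher in NSC, although 2 further UQCR10 probes were not called. The medians of these lists were -0.49, -0.35 and -0.30, and their calls were at or below the share of all genes. For mitochondrial ribosomal proteins, 51 of 51 listed genes were tested, 18 were higher in ESC and none in NSC, with a median of -0.80. MRPL12 had signals of 641 and 646 in ESC and 264 and 291 in NSC (-1.69 ± 0.24, adjusted p = 0.0106), and MRPS12 of 2404 and 2648 and 687 and 889 (-1.85 ± 0.27, adjusted p = 0.0111). MRPL16 differed most, from 494 and 406 to 174 and 187 (-2.28 ± 0.26, adjusted p = 0.00671). HSF6 had the larger list median, -0.96 against -0.63 in HSF1.

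In the one-carbon and nucleotide synthesis lists the called genes were higher in ESC, and 11 tested genes of each list were not called. Of 27 serine, glycine and folate enzymes 20 were tested, with 9 higher in ESC and none in NSC (median -1.03). MTHFD1, which interconverts folate one-carbon units, was at 569 and 724 in ESC and 244 and 226 in NSC (-2.10 ± 0.27, adjusted p = 0.00833). CBS, which diverts homocysteine to cysteine synthesis, went from 6223 and 4881 to 1531 and 1578 (-1.90 ± 0.25, adjusted p = 0.00923), and AMT, of the glycine cleavage system, from 1165 and 805 to 304 and 314 (-2.11 ± 0.29, adjusted p = 0.0102). Of 25 purine and pyrimidine synthesis genes 22 were tested, with 11 higher in ESC and none in NSC (median -1.07). GART, which catalyzes steps of purine synthesis, was at 2768 and 2594 in ESC and 910.2 and 788 in NSC (-1.80 ± 0.24, adjusted p = 0.00938), and PFAS, of the same pathway, at 3289 and 2705 and 1276 and 989 (-1.51 ± 0.27, adjusted p = 0.0191). The ESC and NSC arrays did not overlap in any of these 5 genes.

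Proliferation genes were also read. Of 26 listed and 26 tested genes, 11 were higher in ESC and 1, CENPF, in NSC, while 14 were not called, with a median of -0.89. CCNE1, the cyclin that drives entry into S phase, was at 1132 and 882 in ESC and 229 and 248 in NSC (-2.81 ± 0.27, adjusted p = 0.00399), while a further probe missed the call (adjusted p = 0.0725). MCM4, of the replicative helicase, went from 2465 and 3233 to 971 and 733 (-1.89 ± 0.29, adjusted p = 0.0132). The count higher in ESC was 2 without the HSF1 NSC array and 1 without that of HSF6. The part of proliferation in the metabolic differences was not tested.

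Transport and lipid genes changed in both directions. Of 26 amino acid transporters 20 were tested, with 3 higher in NSC and 6 in ESC, of which 2 and 0 were called without the HSF1 or the HSF6 NSC array. SLC7A5, the large neutral amino acid transporter, fell from 2132 and 3269 to 466 and 436 (-2.90 ± 0.30, adjusted p = 0.0052), whereas the glial glutamate transporters SLC1A3 and SLC1A2 were higher in NSC. APOE and APOC1, apolipoproteins encoded side by side on chromosome 19, fell from 2438 and 1563 to 289 and 191 (-3.95 ± 0.46, adjusted p = 0.00692) and from 876 and 1300.1 to 152 and 140.1 (-4.74 ± 0.32, adjusted p = 0.0018). SCD5, a stearoyl-CoA desaturase expressed in brain, rose from 146 and 239 to 1522 and 1524 (4.38 ± 0.59, adjusted p = 0.00986), although its 2 further probes were not called. PPARGC1A, a coactivator of mitochondrial genes, was within background in ESC, at 143 and 129.6, and at 326 and 346 in NSC, and was higher in NSC by at least 6.39-fold (adjusted p = 0.00338). Of the cholesterol synthesis list, 1 of 20 tested genes was higher in NSC (INSIG2) and 1 in ESC (EBP). Fatty acid synthesis had 2 genes higher in NSC and none in ESC of 19 tested, fatty acid oxidation 2 and 3 of 22, and lysosome genes 5 and 2 of 24, to be read beside 13.5% and 12.3% of all genes. Hypoxia response genes showed 4 higher in NSC and 2 in ESC of 18, with a median of 0.60. CA12, a carbonic anhydrase, rose from 175 and 200.2 to 604 and 338 (2.16 ± 0.43, adjusted p = 0.0248) and BNIP3L, which acts in mitophagy, from 977 and 1190.2 to 3458 and 3813 (1.86 ± 0.25, adjusted p = 0.00955), with ADM, the vasodilator adrenomedullin, falling from 2939 and 5673 to 601 and 957 (-2.62 ± 0.44, adjusted p = 0.0158).

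**Figure D2:**
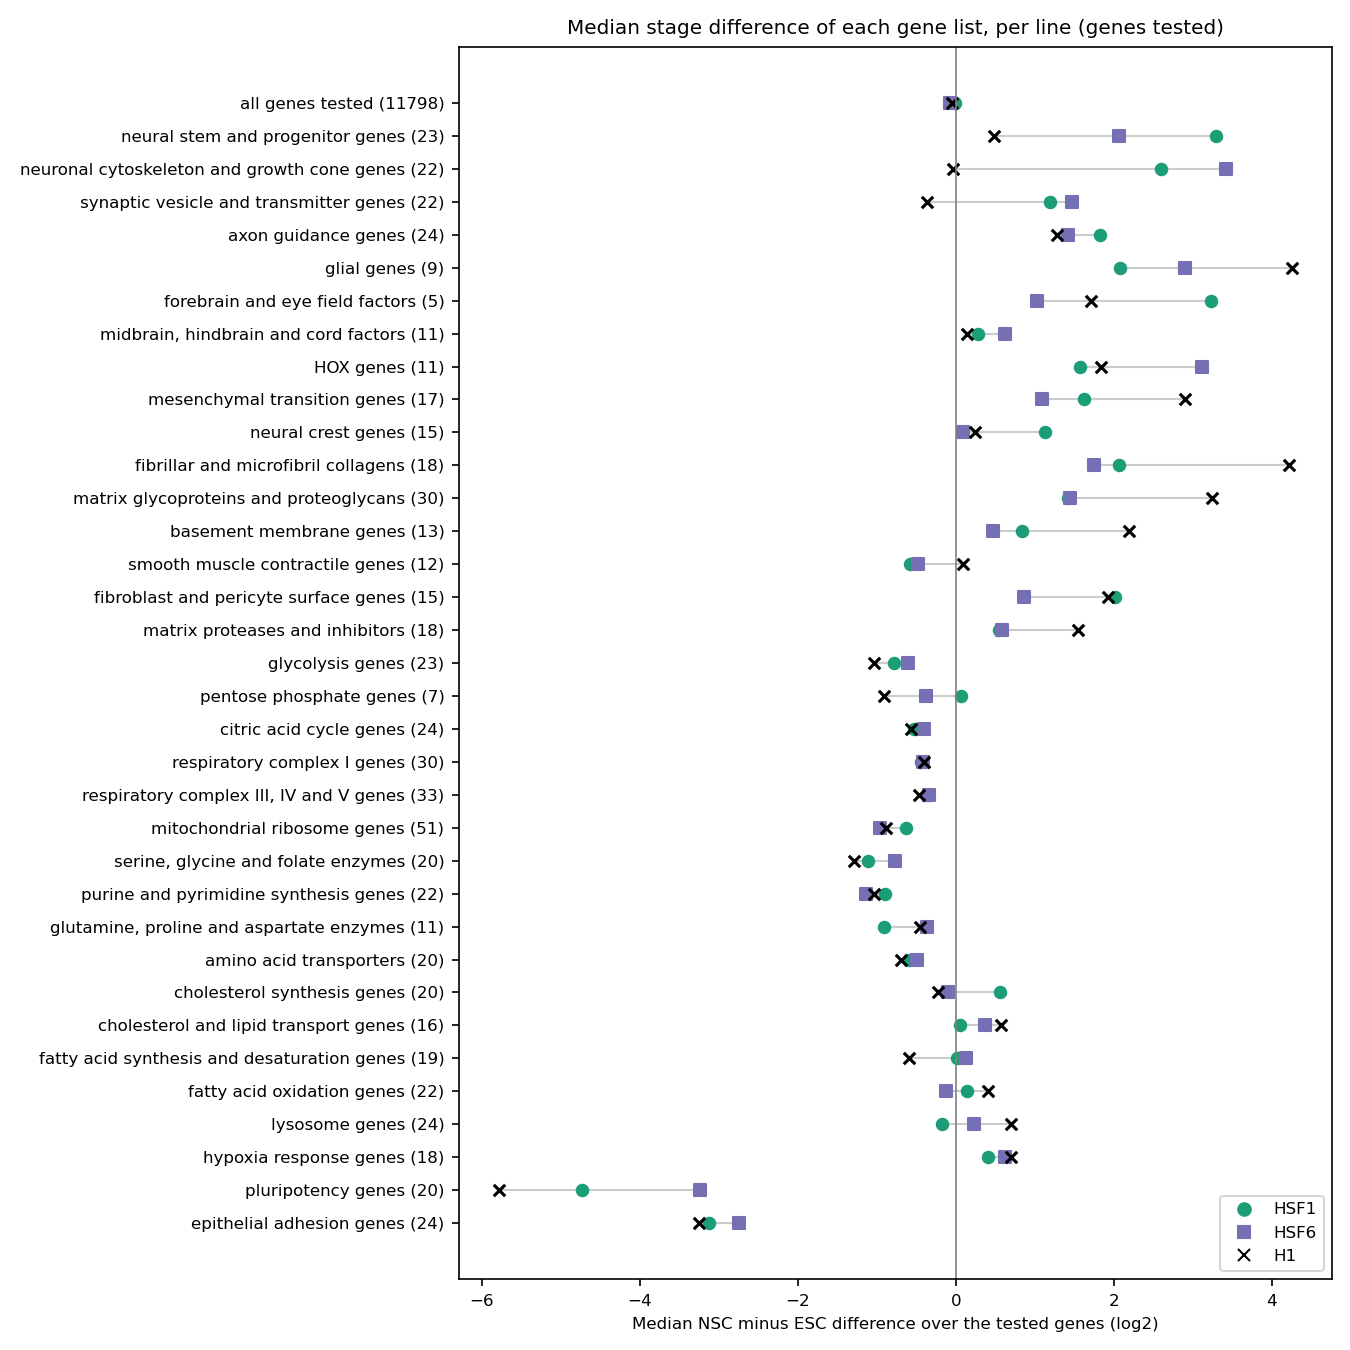
Median NSC minus ESC log2 difference (horizontal axis) over the tested genes of each list (rows, number of genes in brackets) in HSF1 (circles), HSF6 (squares) and H1 (crosses), with the median of all tested genes in the top row; each point is a median over genes of 1 line, with 1 array per stage. For mitochondrial ribosome genes HSF1, HSF6 and H1 are at -0.63, -0.96 and -0.88, while for neuronal cytoskeleton genes HSF1 and HSF6 are at 2.60 and 3.42 and H1 at -0.03, and for collagens at 2.06, 1.76 and 4.22.

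HSF1 and HSF6 differed from each other in the size of many changes. Their stage differences lay more than 2-fold apart in 1746 of 11798 genes (14.8%), in 41 of 131 tested neural genes (31.3%), in 56 of 136 mesenchymal genes (41.2%) and in 42 of 356 metabolic genes (11.8%). Progenitor genes had a median difference of 3.29 in HSF1 and 2.07 in HSF6, and neuronal cytoskeleton genes 2.60 and 3.42. Some of the spread came from the ESC stage. MSX1, a homeobox factor of neural crest and limb mesenchyme, was within background on the HSF1 ESC array (131) and at 735 on that of HSF6, against 3292 and 1649 in NSC, and was not called (adjusted p = 0.091). GAD1, which makes GABA, was at 139 and 630 in ESC and at 754 and 735 in NSC (adjusted p = 0.217). COL3A1 and NANOG, given above, also had an HSF1 ESC value within background and an HSF6 ESC value above it. With 1 array per line and stage, the difference between the lines in their stage change could not be tested.

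The comparison was then set beside one that includes H1. Both share the 4 HSF arrays and the common normalization, so that only the values of each are given. With all 6 arrays, 17448 probes were tested, of which 1799 (10.3%) were called higher in NSC and 2060 (11.8%) higher in ESC. Of the probes called with the HSF arrays, 340 higher in NSC and 23 higher in ESC were not tested with H1, because a probe then had to pass the limit on all 3 arrays of a stage. Among genes, 11.4% were called higher in NSC and 12.4% higher in ESC with H1.

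In fits without the line as a block, the progenitor, neuronal, synaptic and axon guidance lists held fewer calls with H1 and the collagen list more. The fits differ in the number of arrays per stage, which also bears on the number of calls. For progenitor genes 18 of 23 were higher in NSC with the HSF arrays and 9 of 21 with H1, and for the neuronal cytoskeleton 18 of 22 and 8 of 20. Synaptic genes went from 12 of 22 to 5 of 15, axon guidance genes from 14 of 24 to 10 of 22, and midbrain, hindbrain and cord factors from 4 of 11 to 1 of 7. Other neural lists did not fall, with 5 of 9 and 6 of 9 glial genes, 6 of 11 and 7 of 11 HOX genes, and 3 of 5 forebrain and eye field factors in each. Fibrillar collagens went the other way, from 6 of 18 with the HSF arrays to 11 of 18 with H1. In these fits COL1A1 and COL1A2 were called higher in NSC only with H1. With the line as a block, the HSF arrays alone called more collagens than that, as given above. The collagen count with H1 was not taken under that model, so the order of the counts there is not known. Matrix glycoproteins had 12 of 30 and 14 of 30, and mesenchymal transition genes 9 of 17 and 9 of 16. Among metabolic lists, glycolysis had 5 of 23 genes higher in ESC in each, one-carbon enzymes 9 of 20 and 9 of 19, nucleotide synthesis 11 of 22 and 12 of 22, and mitochondrial ribosomal proteins 18 of 51 and 24 of 51.

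**Figure D3:**
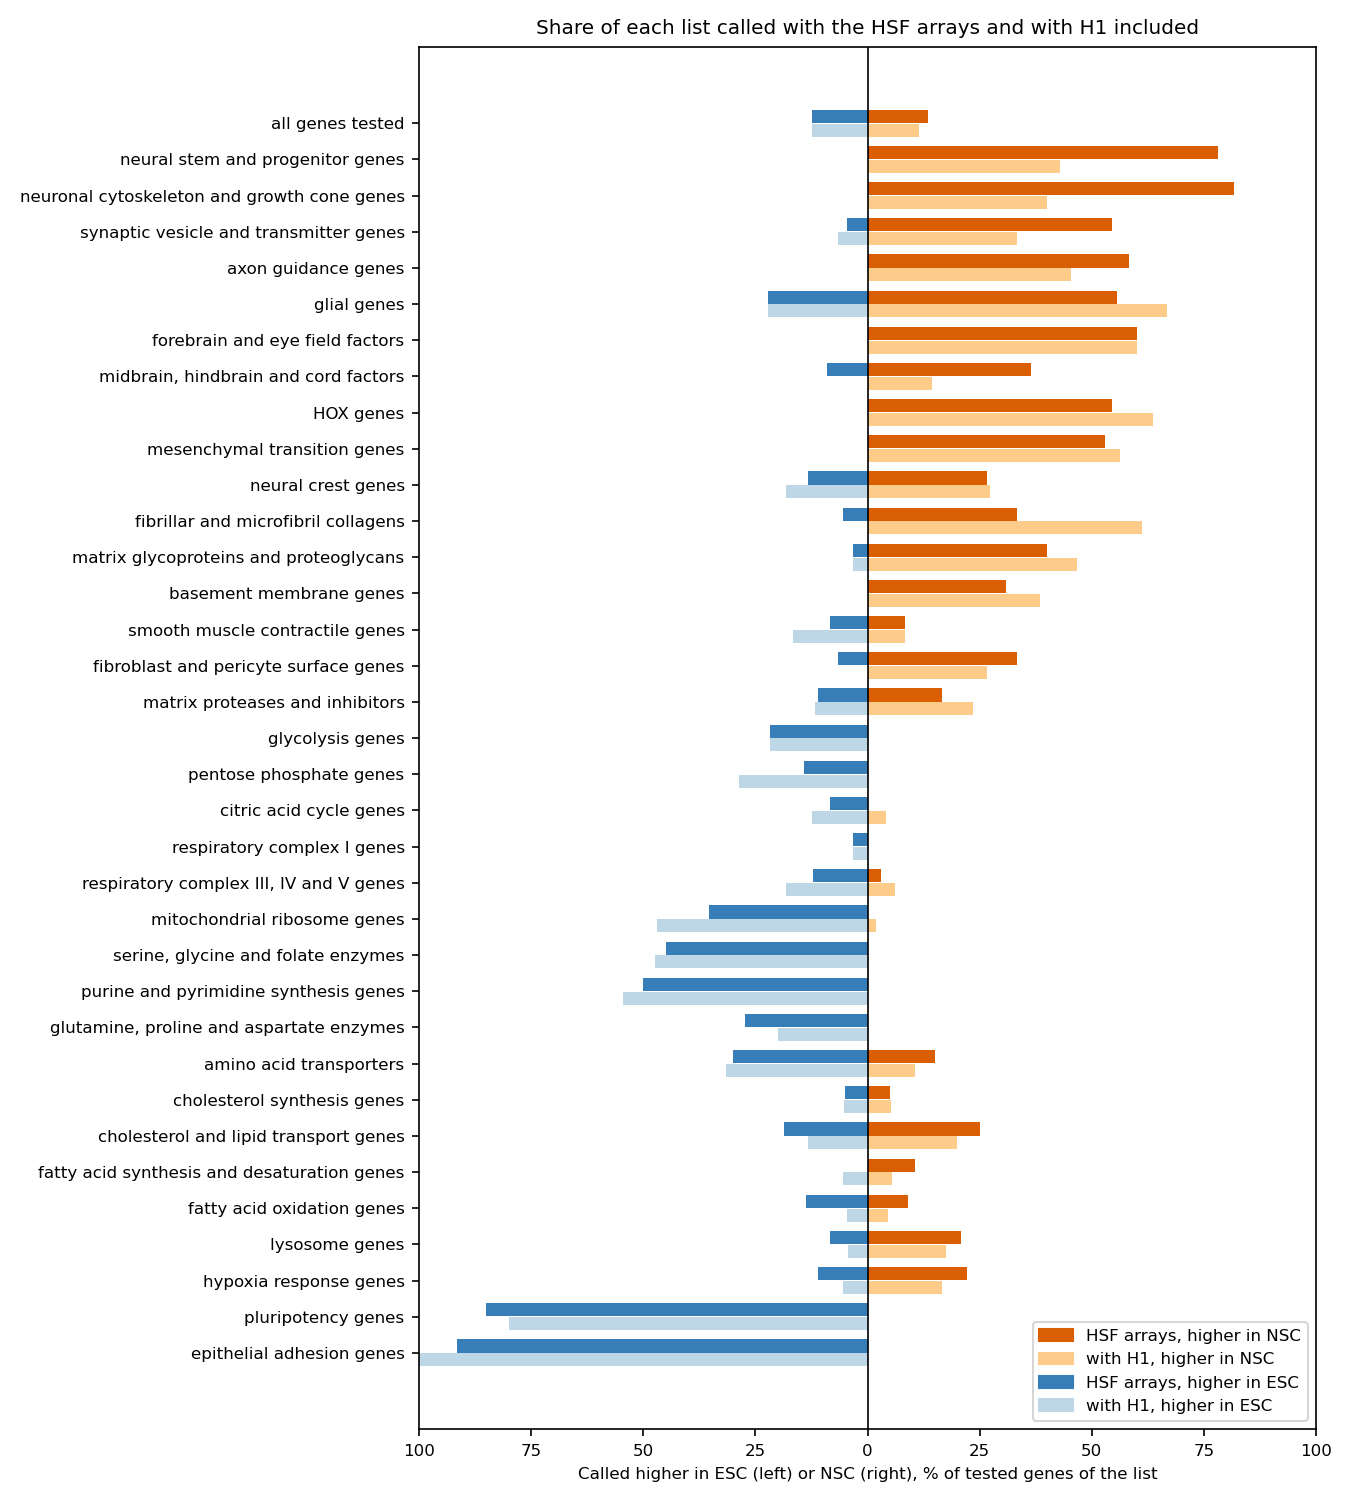
Share of the tested genes of each list (percent, horizontal axis) called higher in NSC to the right and higher in ESC to the left, with dark bars for the 4 HSF arrays and pale bars for all 6 arrays, and all tested genes in the top row. Dark bars are longer for the progenitor, neuronal and synaptic lists, the pale bar is longer for collagens, and for glycolysis genes both reach 5 of 23 genes.

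Where H1 itself differed from the HSF lines was tested as the H1 stage difference minus the mean HSF stage difference. With 1 H1 array per stage the spread came from HSF1 and HSF6 alone, and H1 was assumed to vary as they do. At an adjusted p under 0.05, 117 of 19293 probes passed (adjusted p from 0.0341 to 0.0495), 85 with the higher difference in HSF (0.441%) and 32 with the higher in H1 (0.166%). By genes these were 67 (0.568%) and 18 (0.153%) of 11798. The test used probes above the limit in the HSF arrays, so genes seen only in H1 did not enter. No probe passed when signals under the limit were raised to it (3240 probes had an unadjusted p under 0.05 in limma) or when the HSF1 ESC, HSF1 NSC or HSF6 NSC array was left out (4045, 2086 and 2197 probes with an unadjusted p under 0.05). With the line as a block, 442 probes were higher in HSF and 237 in H1.

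Of 11 list genes that passed with the higher difference in HSF, 10 were neural. In the progenitor list the H1 difference was smaller than the HSF difference in 23 of 23 tested genes, with a median of -2.88, and in 49.8% of all genes. In the neuronal cytoskeleton list it was smaller in 21 of 22 (median -2.78) and in the synaptic list in 19 of 22 (median -1.81). Called genes numbered 4, 4 and 2. STMN4 was at 130.4 and 112 on the H1 ESC and NSC arrays, both within background, against 905 and 913 in HSF NSC, and the H1 difference minus the HSF difference was -5.42 ± 0.39 (adjusted p = 0.0359). SYT4, a synaptotagmin of vesicle membranes, was at 274 and 239 in HSF ESC and 2236 and 3307 in HSF NSC, and at 272 and 129 in H1, a difference of -6.84 ± 0.53 (adjusted p = 0.0359). INA, a neuronal intermediate filament, rose from 595 and 436 to 2401 and 3096 in HSF and went from 877 to 186 in H1 (-6.08 ± 0.53, adjusted p = 0.0359). POU3F2 was at 139 and 149 in H1 (-6.03 ± 0.74, adjusted p = 0.0489), and the host transcript MIR9-1HG, which encloses the MIR9-1 hairpin, was at 139 and 142 in HSF ESC, 895 and 958 in HSF NSC and 164 and 121 in H1 (-5.88 ± 0.40, adjusted p = 0.0359). HES5 showed the same order without passing, at 136 and 135 in H1 (-6.54 ± 0.98, adjusted p = 0.0652).

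SOX2 differed in its course without passing the test. It was at 4586 on the H1 ESC array and 790.3 on the H1 NSC array, where the HSF NSC arrays had 6223 and 6337, and the difference of -3.16 ± 0.45 (adjusted p = 0.062) missed the threshold. With all 6 arrays its difference was -0.61 in place of 0.44, called in neither. The 7 neural stem cell markers summed to 5712 on the H1 ESC array and 1587 on the H1 NSC array, and the 4 neuron markers to 2050.1 and 2724. Most of the neural stem cell sum came from SOX2 and from NES, which was at 1213 and 886. FABP7 went from 183 to 243 and MSI1 from 216 to 142, while PAX6, HES5 and SOX1 were under the limit on both H1 arrays. The fibroblast markers reached 107112 on the H1 NSC array from 2295 at the ESC stage. The pluripotency markers summed to 34133 and 271, and those of the HSF NSC arrays to 609.6 and 1033.

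Matrix genes tended to the larger difference in H1. The H1 difference was above that of HSF in 15 of 18 collagens (median 2.41) and in 25 of 30 matrix glycoproteins (median 1.12), and 1 gene of the matrix glycoprotein list, OGN, and 1 of the protease list, SERPINF1, passed the test. Genes with the largest H1 excess included ALDH1A2, an enzyme that makes retinoic acid, with 246 and 251 in HSF ESC, 217 and 212 in HSF NSC and 199.8 and 7551 in H1 (6.81 ± 0.39, adjusted p = 0.0341). Its relative ALDH1A3 fell in HSF from 709 and 641 to 193 and 154 and rose in H1 from 663 to 5041 (6.40 ± 0.62, adjusted p = 0.0359). TNMD, tenomodulin of tendon, was at 173 and 185 in HSF NSC and 4181 in H1 NSC (5.73 ± 0.43, adjusted p = 0.0359), and MEOX2, a homeobox factor of mesoderm, at 205 and 185 and 2494 (5.09 ± 0.44, adjusted p = 0.0359). EGR1, an immediate early factor, had 2834 and 2564 in HSF ESC and 219.9 and 225 in HSF NSC, the reverse of H1 with 269.7 and 2143 (8.22 ± 0.40, adjusted p = 0.0341). Of the metabolic genes only PPARGC1A passed, with 311 and 190.2 in H1 (-4.27 ± 0.45, adjusted p = 0.0416).

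**Figure D4:**
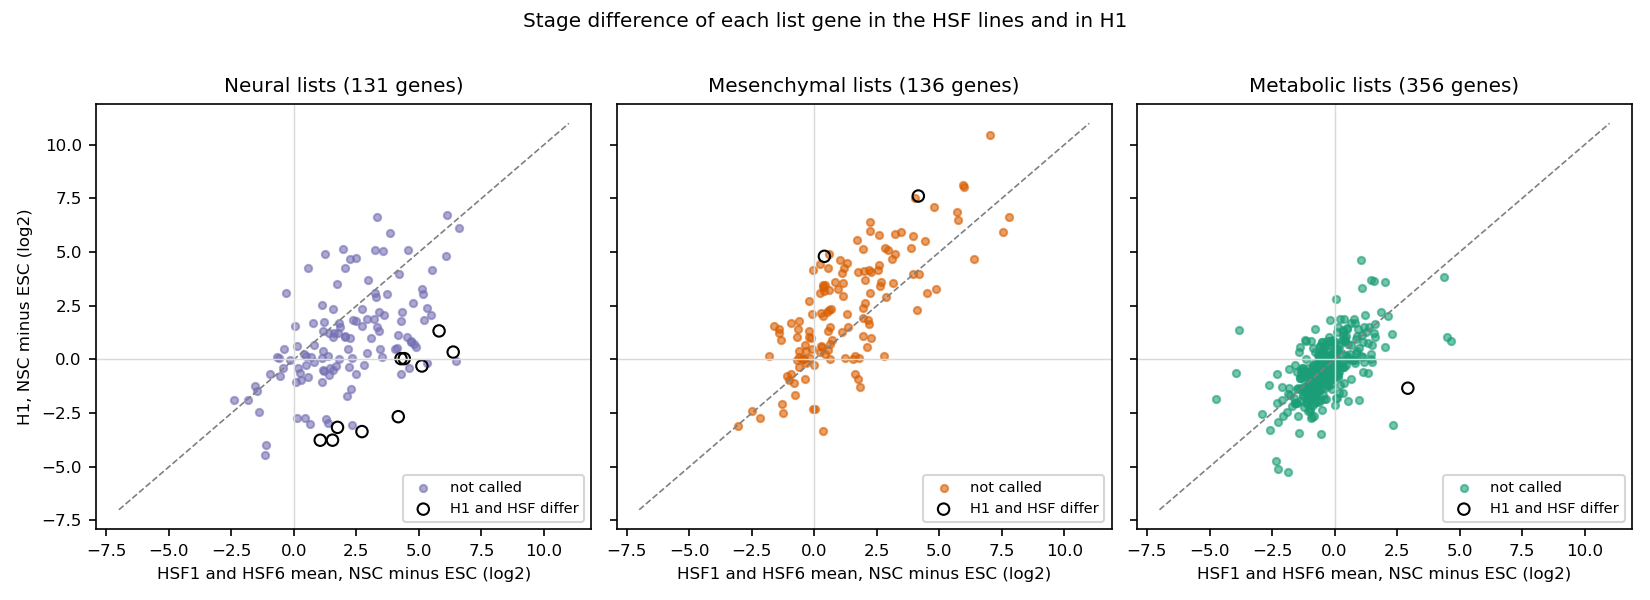
NSC minus ESC log2 difference of each tested list gene in H1 (vertical axis) against the mean of HSF1 and HSF6 (horizontal axis) for neural, mesenchymal and metabolic lists; each point is 1 gene, the dashed line marks equal differences and open circles are genes for which H1 and HSF differed at an adjusted p under 0.05. Of the 13 circled genes, 10 are neural and lie below the line, 2 are mesenchymal and lie above it, and 1 is metabolic and lies below it.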

How the data were processed

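The deposited intensity values of 6 Illumina Human-6 arrays were used, which the authors obtained with BeadStudio, as the submitters' processing notes say (version not given in the sources used here). From the values, which are linear, the sorted signals of the 6 arrays differ by at most 0.407, as after quantile normalization together with the H1 arrays, and none lies below 82.3, so that background was not subtracted. The normalization method is not given in the sources used here. A table of unnormalized signals, with 24 columns named by array position, could not be paired with samples and was not used.

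Groups came from the sample labels. Tests were run with limma 3.58.1 in R 4.3.3, and figures drawn with matplotlib 3.10.9. Background was the mode of the signals (127) with an SD of 11.1 from the values below it, removed by the normexp model before 16 was added and log2 taken. The limit of 145 is 1.64 SD above the mode. Of 48803 probes, 27578 carried 1 gene symbol, 13 several and 21212 none in the annotation used, with symbols updated through GRCh38.p14, and 2781 genes had more than 1 tested probe. In 18 of 50 named genes with a further tested probe, that probe differed in its call, and in none was it called in the opposite direction. Stages were compared with lmFit and eBayes, without covariates, and p-values were adjusted over all tested probes. The fits were tested on simulated data. Arrays carry no count depth, so the precision is limited by how far signals lie above background and by having 2 lines.

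ESC and NSC arrays of a line share the line, which pairs them. Deviations from the stage means correlated at 0.17 between stages. The fit with the line as a block changed 1 call among 152 called named genes, that of ALDH18A1. Named genes are the 10 largest changes in each direction, the called genes of each list with the largest change, 4 at most, markers fixed for the stages and genes the study names, and up to 8 genes in each direction of the H1 test. Other genes named were chosen after their values were seen. The members and lists were chosen with earlier results of these data known. Alternatives were no background correction, an offset of 50, no detection filter or a stricter one at 3 SD, the line as a block, another variance prior, the methods' t-test, values raised to the limit, a wider detection filter for the H1 test, the mean of a gene's probes, and each array left out in turn. Values raised to the limit and the wider filter were chosen after the data were seen.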

Additional observations from a re-analysis of the deposited data

Results flagged for a closer look

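For 20 named genes the stage difference of H1 differed from that of the HSF lines by the test of the difference itself, with adjusted p between 0.0341 and 0.0495. Values are the H1 difference minus the HSF difference on the log2 scale. In 12 of them the HSF difference was the higher: C7orf57 (-7.06), the synaptotagmin SYT4 (-6.84), TOX2 (-6.42), the complement protease MASP1 (-6.39), the neurofilament gene INA (-6.08), POU3F2 (-6.03), MIR9-1HG (-5.88), the adhesion receptor ADGRG1 (-5.80), STMN4 (-5.42), MAP6 (-4.48), PPARGC1A (-4.27) and SLC17A6 (-4.25). The H1 difference was the higher in 8: MEOX2 (5.09), PLAC9 (5.11), ANGPTL4, an inhibitor of lipoprotein lipase (5.70), TNMD (5.73), ALDH1A3 (6.40), ALDH1A2 (6.81), CPXM2 (7.41) and EGR1 (8.22).

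C7orf57 was at 137 and 122 in HSF ESC and 209 and 190.2 in HSF NSC, while H1 went from 1027 to 122. TOX2 rose from 406 and 411 to 1819 and 2849 in HSF and went from 991 to 186 in H1. MASP1 was within background in HSF ESC (124 and 127) and at 585 and 1291 in HSF NSC, against 172 and 119 in H1. CPXM2 went from 372 and 326 to 156 and 156 in HSF and from 201 to 2981 in H1. Each H1 value rests on 1 array, and line, site and culture method cannot be told apart.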

How the results depend on the processing

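The HSF counts stayed within 1.5 times of 2349 probes higher in NSC and 2189 higher in ESC with no background correction, an offset of 50, no detection filter, a stricter one, another variance prior, the line as a replicate block (3045 and 2793), all 6 arrays, values raised to the limit, and either ESC array left out. The methods' t-test called 1 and 0 probes after adjustment, with 5189 at an unadjusted p under 0.05. Leaving out 1 array gave 394 to 2417 probes higher in NSC and 163 to 2069 higher in ESC, and it was the loss of either NSC array that moved the counts by over 1.5 times. With H1 included, the t-test called 604 and 891 probes, leaving out 1 array gave 774 to 2001 and 789 to 2036, and the other settings kept the counts within 1.5 times of 1799 and 2060. In the H1 test, counts higher in H1 and in HSF (32 and 85) were 14 and 7 with no background correction, 4 and 0 with an offset of 50, 33 and 45 with no detection filter, 71 and 111 with probes detected in either HSF or H1, 237 and 442 with the line as a replicate block, and 0 and 0 with values raised to the limit, where 3240 probes had an unadjusted p under 0.05. Leaving out 1 HSF array gave 0 to 36 and 0 to 65.

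Of 152 called named genes, 133 kept the call with no background correction, 143 with an offset of 50, 123 with no filter, 151 with the line as a replicate block, 135 with values raised to the limit and none in the t-test. Without the HSF1 or HSF6 ESC array 129 and 137 were kept, and without the NSC array of HSF1 or HSF6 76 and 67. With all 6 arrays 113 were kept and 2 turned direction. Differences that turned in that setting were SOX2 (-0.61, adjusted p = 0.621), CPXM2 (0.065), ALDH1A2 (1.86), TNMD (1.02) and C7orf57 (-0.60), and PLAC9 turned to -0.054 without the HSF1 ESC array and -0.02 without the HSF1 NSC array (range with 1 array left out -0.054 to 0.23). The cause was not tested. With 2 lines per stage and most probes near background, small differences of dim genes could not be resolved.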

Other observations

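In the endoderm list and in the mesoderm and muscle list, the called genes were higher in ESC. MEOX2, a mesoderm factor outside these lists, was called higher in NSC, at 128 and 124 in HSF ESC and 205 and 185 in HSF NSC (adjusted p = 0.0109). Of 16 endoderm genes 11 were tested, of which 6 were higher in ESC and none in NSC, and 8 of the 11 passed the limit through the ESC arrays only. AFP, a protein of visceral endoderm and fetal liver, was at 429 and 637 in HSF1 and HSF6 ESC and 131 and 127 in NSC and was lower in NSC by at least 11.6-fold (adjusted p = 0.00267). FOXA2, a factor of definitive endoderm, was at 215 and 542 in ESC and 116 and 122 in NSC (lower in NSC by at least 6-fold, adjusted p = 0.0258). The endoderm factor SOX17 (141 and 253) and the mesoderm factor TBXT (122 and 246) were within background on the HSF1 ESC array and above it on that of HSF6, and on neither NSC array were they above the limit. Of 20 mesoderm and muscle genes 13 were not above the limit on both arrays of either stage. Tested were 6, 3 of them through the ESC arrays only. Of the 6, 3 were higher in ESC, among them the skeletal actin ACTA1 with 2604 and 2190.3 in ESC and 173 and 452 in NSC (-3.98 ± 0.78, adjusted p = 0.0236). KRT5, of surface ectoderm, and CDH5, of endothelium, were within background on the 4 HSF arrays.

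Outside the lists, GAL, the neuropeptide galanin, was among the 10 largest decreases, from 5965 and 5704 in ESC to 130.0 and 153 in NSC (-7.43 ± 0.31, adjusted p = 0.00127). SCNN1A, of the epithelial sodium channel, went from 4301 and 1872 to 133 and 130.1 and was lower in NSC by at least 77.3-fold (adjusted p = 0.00179). S100A6, a calcium-binding protein, was at 8622 and 1651 in ESC, higher in HSF1 than in HSF6, and at 120.3 and 111 in NSC, and was lower in NSC by at least 103-fold (adjusted p = 0.00539). LY6H, a GPI-anchored protein of neurons, was among the 10 largest increases, from 117 and 149 to 3059 and 4111 (6.88 ± 0.36, adjusted p = 0.00137), and ADGRG1, an adhesion receptor of neural progenitors, from 159 and 157 to 3270.5 and 6775 (6.62 ± 0.40, adjusted p = 0.00154).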
